A study of Mus musculus with 23 samples.

Results

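The 8 lysosomal cathepsin genes Ctsk, Ctss, Ctsl, Ctsb, Ctsh, Ctsz, Ctsc and Ctsd were followed across 23 mouse oral tumours. They were taken by gene symbol from the annotation of the array, which gives 11 probes for them, out of 25697 probes and 16593 named genes. All 8 genes and all 11 probes passed the filter on dim probes (detected on at least 4 arrays), as did 9732 genes in all. Each gene was represented by its brightest probe, and the further probes of Ctsz and Ctsc are described with those genes.

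The tumours grew for 21 days in C57BL/6 mice, and each was measured once on an Illumina MouseRef-8 v2 bead array. Of 2 tumour types, coded KHR and KR in the labels, the first was studied with intact Notch1 (KHR, n = 5), with 1 intact and 1 lost Notch1 allele (KHR-N+/-, n = 4) and with both alleles lost (KHR-N-/-, n = 5). The second type was studied with 1 allele lost (KR-N+/-, n = 5) and with both lost (KR-N-/-, n = 4), and no KR tumour with intact Notch1 was analysed here. The sources used here do not give what the codes KHR and KR stand for, how Notch1 was deleted or in which cells. Nor do they tie tumours to animals, and a p-value therefore reflects the variation among the 23 tumours themselves.

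Cathepsins are the proteases of the lysosome, the acidic compartment in which cells break down proteins taken up from outside or delivered from within. Most are cysteine proteases made as inactive precursors, and they are held in check outside the lysosome by cystatins and stefins. In tumours they are made by cancer cells as well as by fibroblasts, macrophages and other stromal cells, and those that are secreted cut collagen and other matrix proteins.

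Levels are given as log2 intensity after background correction and quantile normalization, a relative scale on which a difference of 1 is a 2-fold change. Adjusted p-values come from a limma model fitted to all 9732 genes and were adjusted by the Benjamini-Hochberg method within each comparison, with a threshold of 0.05. A gene that passed is called higher or lower. Keratinocyte markers, which mark stratified epithelium in general, were bright on every array, with means of 12 genes from 10.99 to 11.63. Notch1 itself lay between 7.81 and 8.67 in KHR and between 5.40 and 5.80 after loss of both alleles. In KR tumours it lay between 7.44 and 8.13 with 1 allele lost and between 5.61 and 6.52 with both lost. In KHR-N+/- it was 6.60, 7.52, 5.68 and 7.40, so the library labelled KHR-N+/- replicate 3 lay within the KHR-N-/- range. Leaving out KHR replicate 5 moved the number of genes called in KHR-N-/- against KHR from 714 to 1331. Results that change without either of these libraries are given without them as well. The mean array intensity before normalization ran from 142.4 to 366.4 and the number of detected probes from 10353 to 12654. Mean intensity was 204.1 to 366.4 in KHR-type and 142.4 to 360.4 in KR tumours, and the dimmest arrays were of KR tumours. The part of array brightness in differences between tumour types was not tested.

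Ctsk, which encodes cathepsin K, a collagen-cutting protease best known from osteoclasts and also made by fibroblasts and macrophages, had the widest spread of group means of the 8 genes. It was lowest in KHR tumours and highest in KHR-N-/- tumours. Its 1 probe gave values of 6.37, 6.12, 6.41, 6.89 and 7.44 in KHR and of 8.17, 8.41, 8.77, 8.13 and 8.80 in KHR-N-/-. Every KHR-N-/- tumour lay above every KHR tumour, and KHR replicate 5 was the highest of its group. The difference was 1.81 (SE 0.21, 95% interval 1.38 to 2.25), a 3.51-fold higher level in the limma fit (adjusted p = 1.71e-05), and ranked 25 by size among the 9732 genes. Without KHR replicate 5 it was 2.01 (adjusted p = 2.51e-07). Its size depended on the background step, at 1.28 with no background correction (adjusted p = 6.18e-05) and 1.5 with an offset of 50 (adjusted p = 6.21e-05).

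KHR-N+/- tumours also had more Ctsk than KHR tumours, with 7.57, 7.84, 8.19 and 7.86. The groups again did not overlap, and the 2.33-fold difference was called (1.22, SE 0.22, 95% interval 0.76 to 1.68, adjusted p = 0.0066 by limma). It remained called without the library labelled KHR-N+/- replicate 3 (1.11, adjusted p = 0.0368), but not when the fit held only these 2 groups (adjusted p = 0.164) or under median scaling (1.70, adjusted p = 0.0813). With no background correction it was 0.81 (adjusted p = 0.0146). Both comparisons use the same 5 KHR tumours. Between KHR-N-/- and KHR-N+/- the difference of 0.59 (95% interval 0.13 to 1.05) was not called (adjusted p = 0.412), and the 2 groups overlapped only through KHR-N+/- replicate 3, the tumour with the highest Ctsk and the lowest Notch1 of its group. Without it the difference was 0.70 (adjusted p = 0.295).

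In KR tumours Ctsk was 7.11, 7.49, 7.39, 7.09 and 6.84 with 1 Notch1 allele and 7.44, 7.52, 8.24 and 7.58 with none. KR-N-/- replicate 3 stood above all KR-N+/- tumours by a wide margin, and the other KR-N-/- tumours lay at or just above the upper end of that group. The difference of 0.51 (95% interval 0.05 to 0.97) was not called (adjusted p = 0.12). The Notch1 effect was compared between tumour types as both alleles lost against 1 lost, so KHR tumours with intact Notch1 do not enter it. For Ctsk this effect was 0.59 in KHR-type and 0.51 in KR tumours. They differed by 0.08 (95% interval -0.57 to 0.73, adjusted p = 0.975), an interval too wide to tell an equal effect from a difference of 0.5. KHR-N-/- tumours had 1.69-fold more Ctsk than KR-N-/- tumours (0.76, SE 0.22, adjusted p = 0.0272), with KR-N-/- replicate 3 inside the KHR-N-/- range. This call was lost on leaving out any 1 of KHR-N-/- replicates 3 and 5 and KR-N-/- replicates 1, 2 and 4 (0.68 to 0.72, adjusted p = 0.0609 to 0.0884). It was also lost with no detection filter (0.76, adjusted p = 0.0533) and under median scaling (1.44, adjusted p = 0.0555), where the median of all genes was 0.39. The corresponding difference between the heterozygous groups, 0.68, was not called (adjusted p = 0.0738) although these groups did not overlap. It passed without KHR replicate 5 (adjusted p = 0.0313) and without KR-N+/- replicate 2 (0.76, adjusted p = 0.0491), and was 0.57 (adjusted p = 0.219) without KHR-N+/- replicate 3.

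**Figure D1:**
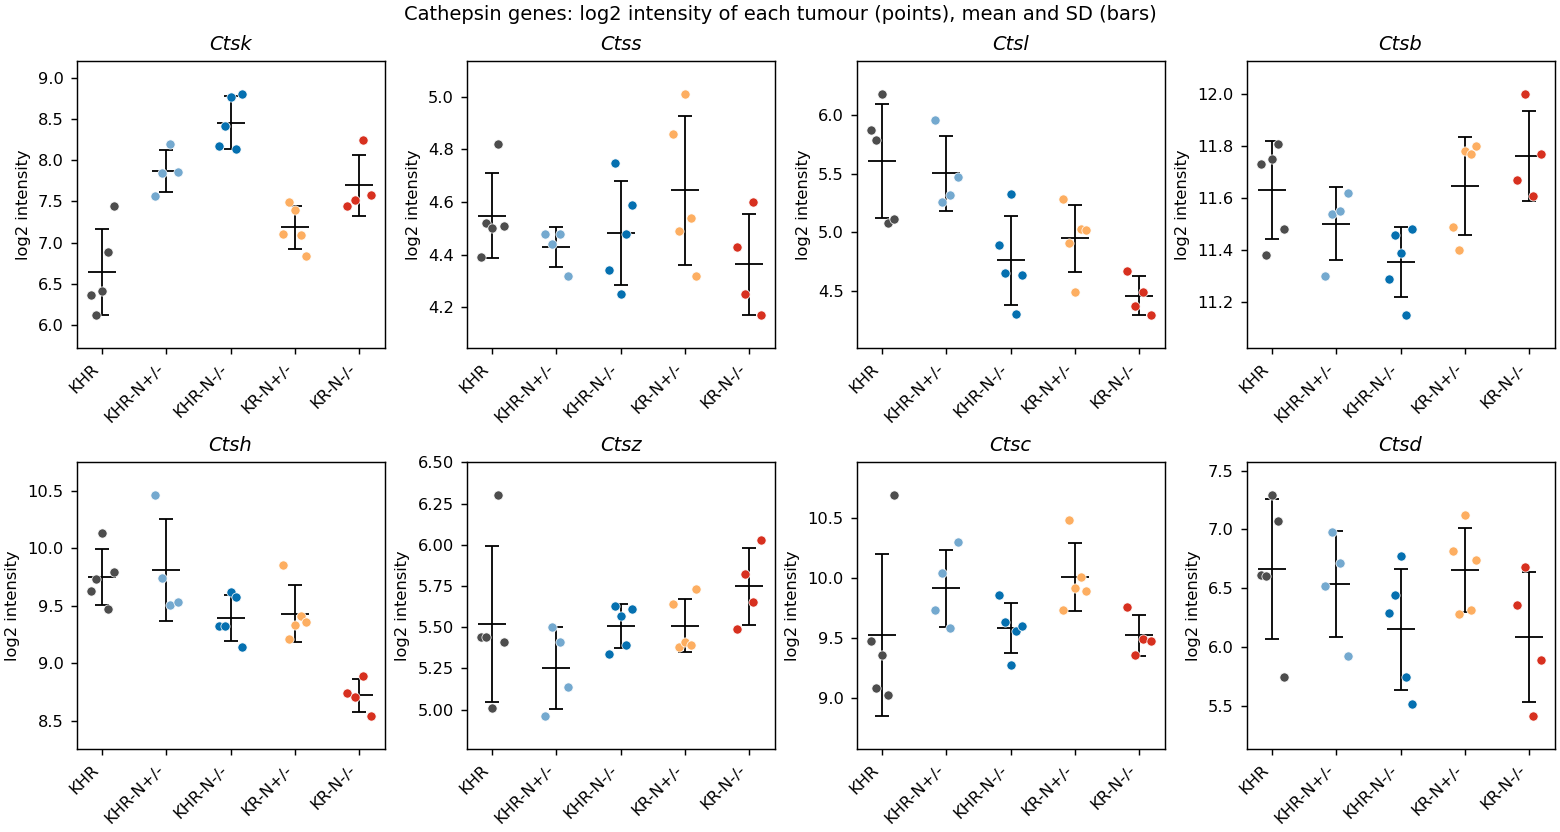
Log2 intensity of the 8 cathepsin genes in each of the 23 tumours, by group. Points are single tumours, and the bars give the group mean and SD. Ctsk ran from a mean of 6.64 in KHR to 8.46 in KHR-N-/-, Ctsh was lowest in KR-N-/- (8.72), and Ctss stayed between 4.17 and 5.01 on all arrays, close to background. The vertical axes differ between genes.

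Ctsk levels correlated with markers of fibroblasts over the 23 arrays, but their calls did not go together in every comparison. The mean log2 intensity of 13 fibroblast markers was 6.62 to 7.64 in KHR and 7.82 to 8.39 in KHR-N-/-, and 11 of the 13 were higher in KHR-N-/- (median difference 1.24, against 0.01 over all genes), among them the matrix collagens Col6a1 (2.13, adjusted p = 0.000906), Col5a1 (1.79, adjusted p = 0.000239) and Col6a2 (1.62, adjusted p = 0.00117). In the same comparison 4 of 11 macrophage markers were higher, led by the scavenger receptor Mrc1 (1.01), and the list mean ran from 5.30 to 5.86 in KHR and from 5.76 to 6.21 in KHR-N-/-. Of all genes, 4.57% were higher in this comparison. The macrophage marker Itgam was detected on 0 of 23 arrays and Fcgr1 on 2. Under median scaling, tried after seeing the data, 5 fibroblast and 2 macrophage markers were called, all higher. In bulk tumour RNA more cells of a type and more RNA per cell cannot be told apart, and the part of either cell type in the Ctsk difference was not tested.
The Pearson correlation of Ctsk with the fibroblast mean was 0.874 over the 23 arrays and 0.822 after the group means were removed, and with the macrophage mean 0.692 and 0.606. These are descriptions of arrays that share their tumours and their normalization. KHR replicate 5, the KHR tumour with the highest Ctsk, also had the highest fibroblast mean of its group (7.64). KR-N-/- replicate 3 likewise had both the highest Ctsk (8.24) and the highest fibroblast mean (8.03) of the KR tumours. KR-N-/- tumours had fibroblast means of 7.75 to 8.03, within or near the range of KHR-N-/- tumours, while their Ctsk was 0.76 lower. In KHR-N+/- against KHR, where Ctsk was called, 1 of 13 fibroblast markers was higher (median 0.34), as were 0.822% of all genes. In KR-N-/- against KR-N+/-, where Ctsk was not called, 8 of 13 were higher (median 0.81). That comparison called 16.2% of all genes.

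**Figure D2:**
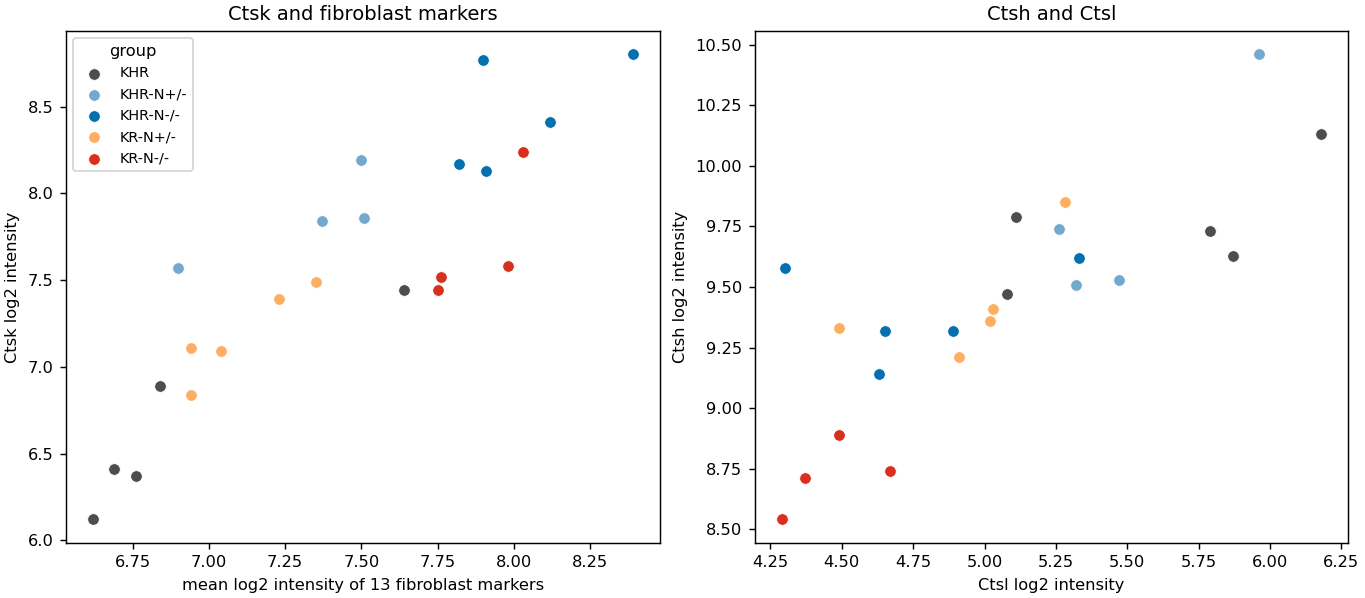
Left, Ctsk log2 intensity of each tumour against the mean log2 intensity of 13 fibroblast markers, coloured by group. Right, Ctsh against Ctsl. Over the 23 arrays the Pearson correlation was 0.874 on the left and 0.804 on the right, and the 4 KR-N-/- tumours sit lowest in Ctsh.

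The fibrillar collagens that cathepsin K is known to cut moved in the same comparison. All 3 measured chains were higher in KHR-N-/- than in KHR, with differences of 2.03 for Col1a1, 1.65 for Col1a2 and 1.12 for Col3a1 (adjusted p = 0.00346, 0.00015 and 0.00619). In KR-N-/- against KR-N+/- the differences were 2.37 for Col1a1 and 0.86 for Col1a2, both called (adjusted p = 0.00156 and 0.0247), while Col3a1 did not pass. Shares over all genes were 4.57% higher in KHR-N-/- against KHR and 16.2% called in KR-N-/- against KR-N+/-. Among 9 osteoclast markers, Calcr and Ocstamp were detected on 0 of 23 arrays and Dcstamp on 1, and Acp5, Oscar and Nfatc1 did not pass in KHR-N-/- against KHR. Mmp9, a gelatinase that osteoclasts share with neutrophils and tumour cells, was higher by 2.54 (adjusted p = 0.000729). By correlation over the 23 arrays the genes most like Ctsk were Thbs2 (0.924), a matrix thrombospondin, Rbp7 (0.922), a retinol-binding protein, and Gpnmb (0.915), a glycoprotein of endosomes and lysosomes.

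Ctss, which encodes cathepsin S, the protease that trims the invariant chain during antigen presentation, lies next to Ctsk on chromosome 3, with 1 non-coding RNA gene (Gm40096) listed between them in RefSeq. It was read close to background. Its probe was detected on 12 of 23 arrays, in 8 of 14 KHR-type and 4 of 9 KR-type tumours, and all values lay between 4.17 and 5.01. The difference between KHR-N-/- and KHR, where Ctsk was 3.51-fold higher, was -0.06 for Ctss (95% interval -0.32 to 0.20, adjusted p = 0.845), and no other comparison called it. Such a signal bounds the change of the probe and says little of the level of the transcript. The genes most like it were Fcrls (0.775), Dld (0.706) and Camk2a (0.693). With Ctss this close to background, its response cannot be compared with that of Ctsk. The promoters of the neighbouring genes Ctsk and Ctss are shown because their probes differed in signal. They are the 250 bases before the start in RefSeq on GRCm38.p6, at chr3:95498960-95499209 for Ctsk and chr3:95526536-95526785 for Ctss, both on the plus strand. Capitals mark GAGGAA, the core recognised by the myeloid factor PU.1, or its reverse complement TTCCTC.
Ctsk: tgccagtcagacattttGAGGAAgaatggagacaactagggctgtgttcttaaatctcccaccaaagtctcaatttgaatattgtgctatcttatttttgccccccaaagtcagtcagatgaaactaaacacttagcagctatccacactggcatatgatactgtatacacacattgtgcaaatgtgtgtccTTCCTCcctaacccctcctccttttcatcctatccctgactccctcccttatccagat
Ctss: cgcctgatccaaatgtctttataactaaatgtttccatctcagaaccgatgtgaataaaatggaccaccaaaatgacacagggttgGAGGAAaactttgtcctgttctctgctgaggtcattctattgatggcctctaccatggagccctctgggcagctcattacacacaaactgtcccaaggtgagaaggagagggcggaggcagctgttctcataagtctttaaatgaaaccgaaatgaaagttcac
GAGGAA occurs at 233 to 228 bases before the start of Ctsk and, on the other strand, at 58 to 53, and at 164 to 159 bases before the start of Ctss. Of 32851 mouse promoters of this length, 23.3% hold it on either strand, so its presence is common. The AP-1 motif TGACTCA and the Notch effector motif GTGGGAA, searched on both strands, were not among the letters of either window.

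Ctsl, which encodes cathepsin L, a broad endopeptidase of lysosomes that also acts in keratinocytes, went the other way. Its values were 5.87, 5.79, 6.18, 5.08 and 5.11 in KHR, 5.96, 5.26, 5.32 and 5.47 in KHR-N+/-, and 4.89, 4.65, 5.33, 4.30 and 4.63 in KHR-N-/-. Of the KHR-N-/- tumours only replicate 3 lay within the KHR range. The level was 1.8-fold lower in KHR-N-/- than in KHR (-0.84, SE 0.21, 95% interval -1.27 to -0.42, adjusted p = 0.0116 by limma). The same value was not called under median scaling (adjusted p = 0.111) or with only these groups in the fit (adjusted p = 0.0747). Its size depended on the background step, at -0.45 with an offset of 50 (adjusted p = 0.0191) and -0.30 with no background correction (adjusted p = 0.0227), and was -1.08 with array weights (adjusted p = 3.46e-05). Without KHR replicate 5 the difference was -0.97 (adjusted p = 0.00269).
As reported, Ctsl was called in no other comparison. Among comparisons of Notch1 status the differences were -0.74 between KHR-N-/- and KHR-N+/- (adjusted p = 0.233), -0.49 between KR-N-/- and KR-N+/- (adjusted p = 0.129) and -0.10 between KHR-N+/- and KHR (adjusted p = 0.93). Of these, the first passed with array weights (-0.66, adjusted p = 0.0211) and the second with only its 2 groups in the fit (-0.49, adjusted p = 0.0387). Between tumour types the differences were positive, at 0.56 for KHR-N+/- against KR-N+/- (adjusted p = 0.14) and 0.30 for KHR-N-/- against KR-N-/- (adjusted p = 0.392). The first of these was called under median scaling (1.09, adjusted p = 0.0122), where the median of all genes was 0.65. In KR tumours the values were 5.28, 4.91, 4.49, 5.03 and 5.02 with 1 allele and 4.67, 4.37, 4.49 and 4.29 with none, and the groups overlapped only through KR-N+/- replicate 3. The probe is dim: it was detected in 4 of 5 KHR-N-/-, 4 of 5 KR-N+/- and 2 of 4 KR-N-/- tumours and in all 9 others, and a fold near background understates the change.

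Ctsh, which encodes cathepsin H, an aminopeptidase of the same family, was lowest in KR-N-/- tumours. They read 8.74, 8.71, 8.89 and 8.54, against 9.85, 9.21, 9.33, 9.41 and 9.36 in KR-N+/-. No KR-N-/- tumour reached the range of any other group. The level was 1.64-fold lower than in KR-N+/- (-0.71, SE 0.17, 95% interval -1.07 to -0.36, adjusted p = 0.00749) and 1.6-fold lower than in KHR-N-/- tumours, which read 9.32, 9.32, 9.62, 9.58 and 9.14. That second difference, 0.68 in favour of KHR-N-/- (SE 0.17, adjusted p = 0.0123), stayed past the threshold in all 12 alternative settings and on leaving out each of the 23 arrays. Under median scaling it was 1.38, where the median of all genes was 0.39. The first was lost in 1 setting, median scaling, where the value was -0.71 with an adjusted p of 0.884. These 2 comparisons share the KR-N-/- tumours.
Among KHR tumours Ctsh was 9.63, 9.73, 10.13, 9.47 and 9.79 with intact Notch1 and 10.46, 9.74, 9.51 and 9.53 with 1 allele. KHR-N+/- replicate 1 stood above the rest. The differences of -0.35 between KHR-N-/- and KHR (adjusted p = 0.207) and -0.41 between KHR-N-/- and KHR-N+/- (adjusted p = 0.493) were not called. The effect of both alleles lost against 1 lost differed by 0.30 between the tumour types, and this was not called. Ctsh and Ctsl were the most alike pair of the 8, with a correlation of 0.804 over the arrays and 0.582 within groups. The genes most like Ctsh were Prss27 (0.911), a serine protease of stratified epithelium, Plk3 (0.895), a kinase, and Epha2 (0.890), an ephrin receptor of epithelia. Those most like Ctsl were Pfkfb4 (0.918), a regulator of glycolysis, Pla2g4b (0.904), a phospholipase, and Tnip1 (0.897), an inhibitor of NF-kappaB signalling.

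Ctsb, which encodes cathepsin B, an endopeptidase and dipeptide-releasing carboxypeptidase, was bright on all arrays and varied little within groups. KHR-N-/- tumours read 11.29, 11.46, 11.39, 11.15 and 11.48 and KR-N-/- tumours 11.67, 12, 11.61 and 11.77. The groups did not overlap, and the level was 1.32-fold lower in KHR-N-/- (-0.40, SE 0.12, adjusted p = 0.0258). The call was lost without any 1 of KHR-N-/- replicates 1 and 4 and KR-N-/- replicates 2 and 4 (-0.40 to -0.33, adjusted p = 0.0521 to 0.107). Under median scaling the value was 0.24 while the median of all genes was 0.39, so Ctsb lay 0.15 under the shift of all genes, and it was not called (adjusted p = 0.513). In KHR-N-/- against KHR the difference of -0.27 was not called (adjusted p = 0.143), and it passed with array weights (-0.28, adjusted p = 0.0378). KHR tumours ran from 11.38 to 11.81, KHR-N+/- from 11.30 to 11.62 and KR-N+/- from 11.40 to 11.80. Its residual SD was 0.17, against a median of 0.21 over all genes. The genes most like it were Atp9a (0.812), a phospholipid flippase, Gpkow (0.783), an RNA-binding protein, and Nfe2l1 (0.776), a transcription factor of proteasome genes.

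Ctsz, the carboxypeptidase cathepsin Z (also called X), was called in no comparison. Group means of its brighter probe ran from 5.25 ± 0.25 in KHR-N+/- (SD, n = 4) to 5.75 ± 0.23 in KR-N-/- (SD, n = 4). KHR replicate 4, at 6.30, was the highest of all tumours, the other KHR values being 5.01 to 5.44. The second probe gave group means of 5.24 to 5.65 in a like order and no call. The genes most like Ctsz were Psmb10 (0.877), an immunoproteasome subunit, Cox18 (0.877), a mitochondrial assembly factor, and Pde1b (0.861), a phosphodiesterase. Ctsz and Ctsh had the most negative correlation among the 8 genes over the 23 arrays (-0.587). Within groups theirs was -0.482, and that of Ctsc and Ctsd was the most negative (-0.57).

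Ctsc encodes cathepsin C, the dipeptidyl peptidase that activates granule proteases of neutrophils, mast cells and cytotoxic lymphocytes. It was 9.47, 9.08, 9.36, 9.02 and 10.69 in KHR, where replicate 5 stood far above the others. KHR-N+/- tumours ran from 9.58 to 10.30, KHR-N-/- from 9.27 to 9.86, KR-N+/- from 9.73 to 10.48 and KR-N-/- from 9.36 to 9.76. No difference was called over all 23 arrays. The largest were -0.48 between KR-N-/- and KR-N+/- (adjusted p = 0.172) and 0.39 between KHR-N+/- and KHR (adjusted p = 0.621).
Both passed once KHR replicate 5 was left out. The second became 0.68 (adjusted p = 0.0252). The first kept its value of -0.48, since that tumour is in neither KR group, and passed (adjusted p = 0.0349), the spread being estimated over all 5 groups. In a fit over the 13030 named probes the 3 Ctsc probes gave -0.48, -0.56 and -0.77 for the KR comparison, with adjusted p-values of 0.176, 0.173 and 0.0293, so only the dimmest was called. Of 10 granule protease genes, 6 were measured, and the mast cell genes Tpsb2 (0.82), Cpa3 (0.76) and Cma1 (0.63) were higher in KHR-N-/- than in KHR (adjusted p = 0.00618, 0.0114 and 0.00325), where Ctsc differed by 0.06 (adjusted p = 0.918). The share of all genes that were higher there was 4.57%. Tpsb2, Cpa3 and Cma1 were near background in KHR, detected in 2, 3 and 1 of 5 tumours, against 5 of 5 each in KHR-N-/-. The mast cell genes Mcpt4 and Tpsab1 were measured and not called. Mcpt4 had means of 4.36 in KHR and 4.86 in KHR-N-/-, and Tpsab1 went the other way, with 4.47 and 4.39. Gzma, Gzmb and Gzmc of cytotoxic lymphocytes were detected on 0 of 23 arrays. The genes most like Ctsc were Rab7b (0.732), a small GTPase of late endosomes, Sav1 (0.730), of the Hippo pathway, and Man2a1 (0.729), a Golgi mannosidase.

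Ctsd, the aspartic protease cathepsin D, varied most within groups. It was 5.74 to 7.29 in KHR, 5.92 to 6.98 in KHR-N+/-, 5.51 to 6.77 in KHR-N-/-, 6.28 to 7.12 in KR-N+/- and 5.41 to 6.68 in KR-N-/-. Every pair of groups overlapped and no comparison was called, the largest difference being -0.57 (95% interval -1.19 to 0.06, adjusted p = 0.208) between KR-N-/- and KR-N+/-. Its residual SD of 0.50 was larger than that of 97.1% of the genes. The genes most like it were Lce1g (0.883), of the late cornified envelope, Il1f6 (0.880), the keratinocyte cytokine IL-36 alpha, and Pls3 (0.856), an actin-bundling protein. The promoters of Ctsd and Ctsl are shown because they hold CACGTG, the E-box at the centre of the element through which TFEB, a regulator of lysosomal genes, acts. They lie at chr7:142387828-142388077 and chr13:64370521-64370770 on GRCm38.p6, both on the minus strand, and capitals mark CACGTG.
Ctsd: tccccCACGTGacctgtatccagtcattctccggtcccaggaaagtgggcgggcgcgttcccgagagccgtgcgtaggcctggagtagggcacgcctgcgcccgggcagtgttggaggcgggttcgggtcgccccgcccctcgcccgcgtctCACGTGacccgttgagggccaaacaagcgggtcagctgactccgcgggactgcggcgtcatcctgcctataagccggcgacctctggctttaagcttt
Ctsl: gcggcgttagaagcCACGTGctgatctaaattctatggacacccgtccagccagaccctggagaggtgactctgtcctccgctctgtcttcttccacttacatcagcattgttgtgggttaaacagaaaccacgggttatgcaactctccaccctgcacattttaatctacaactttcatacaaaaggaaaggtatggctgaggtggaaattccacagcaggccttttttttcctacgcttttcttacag
CACGTG occurs at 245 to 240 and at 98 to 93 bases before the start of Ctsd, and at 236 to 231 before that of Ctsl, and 6.02% of the 32851 promoters hold it. RefSeq promoters were found for 6 of the 8 genes, Ctsb and Ctsh being the others. The windows of Ctsk, Ctss, Ctsz and Ctsc hold no CACGTG, and none of the 6 holds TGACTCA or GTGGGAA, which 4.46% and 5.42% of promoters hold. A match or its lack describes these letters and no more.

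Over the 8 genes, calls were few and of mixed direction. In KHR-N-/- against KHR, 1 member was higher (Ctsk, 4.57% of all genes higher) and 1 lower (Ctsl, 2.76% of all genes lower), where 7.34% of all genes were called. In the same comparison 1 member did not overlap between the groups, as for 5.15% of all genes. The median of the 8 differences was -0.17, against 0.01 over all genes. In KHR-N+/- against KHR 1 member was higher (Ctsk, with 1.25% of genes called and 0.822% higher) and 1 did not overlap (3.39%), and in KR-N-/- against KR-N+/- 1 was lower (Ctsh, with 16.2% of genes called and 6.63% lower) and 1 did not overlap (18.5%). Here the median of the members was -0.38, against 0.04 over all genes.
KHR-N-/- against KR-N-/- gave 2 higher members (Ctsk and Ctsh) and 1 lower (Ctsb), with 12.8% of genes called, 6.31% higher and 6.5% lower, and 2 members did not overlap (20.1% of genes). In KHR-N-/- against KHR-N+/- 0 members were called (0.103% of genes) and 0 did not overlap (4.91%), while 3 had an unadjusted p under 0.05 in the limma fit. In KHR-N+/- against KR-N+/- 0 were called (5.57% of genes), 3 had an unadjusted p under 0.05 and 1 did not overlap (9.4%). The effect of both Notch1 alleles lost against 1 lost was also tested for a difference between the 2 tumour types. That test called 0 of 8 members and 0% of genes, and 0 members had an unadjusted p under 0.05. Comparisons that share a group are not independent of each other. When the 5 group means were ordered, neighbouring groups overlapped for every member except KHR-N-/- and KR-N-/- for Ctsh.

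**Figure D3:**
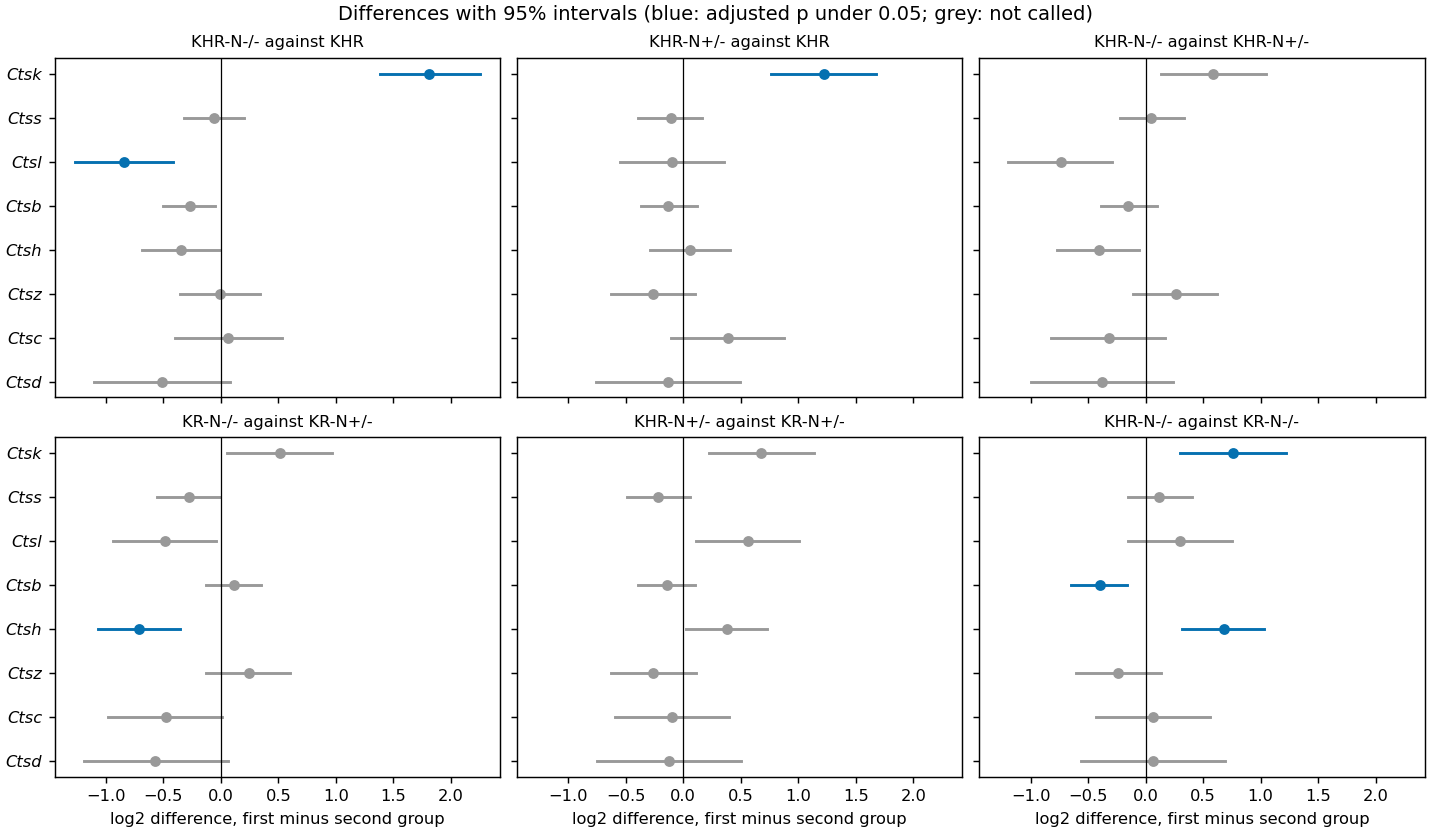
Log2 difference (point) and 95% interval (line) of the 8 cathepsin genes in the 6 comparisons between groups, first group minus second. Blue marks an adjusted p under 0.05. Ctsk stands to the right in KHR-N-/- against KHR (1.81) and KHR-N+/- against KHR (1.22), and Ctsl to the left in the first (-0.84).

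Some inhibitors of the cysteine cathepsins were also higher after Notch1 loss. Of 10 measured cystatin and stefin genes, 3 were higher in KHR-N-/- than in KHR (median 0.38), namely Csta2 (2.84, SE 0.36, adjusted p = 3.85e-05), Cstdc4 (2.50, SE 0.33, adjusted p = 5.8e-05) and Csta3 (1.36, adjusted p = 0.0459), all of the mouse stefin A cluster. Of all genes, 4.57% were higher in that comparison. The count was 2 of 10 without KHR replicate 5 and also without KHR-N+/- replicate 3. In KR-N-/- against KR-N+/- 2 were higher, Csta2 (2.06, adjusted p = 0.00144) and Cstdc4 (1.33, adjusted p = 0.0119), and Cstb, the widely expressed stefin B, was lower (-0.69, adjusted p = 0.0013). There 16.2% of all genes were called and 6.63% were lower. Cstb was higher in KHR-N-/- than in KR-N-/- (0.51, adjusted p = 0.0111), as was Csta3 (1.76, adjusted p = 0.0116). The stefin A genes are near-identical copies, so a probe may read more than one of them.

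The vacuolar proton pump, which acidifies the lysosome and so allows cathepsins to mature and act, was lower in KR-N-/- than in KR-N+/- for 9 of 18 measured subunit genes and higher for 1 (median -0.32, against 0.04 over all genes). Of all genes, 16.2% were called and 6.63% were lower in that comparison. Means of the 18 genes were 8.92 to 9.06 in KR-N-/- and 9.19 to 9.36 in KR-N+/-, with no overlap. Examples are Atp6v1c2 (-1.16, adjusted p = 0.00808) and Atp6v1g1 (-0.68, adjusted p = 0.0185), and the exception was Tcirg1 (0.81, adjusted p = 0.00213), the a3 subunit known from osteoclasts. Under median scaling 0 of the 18 were called, with a median of -0.32. In KHR-N-/- against KR-N-/- 5 subunit genes were higher and 2 lower, with Atp6v1g1 (0.89), Atp6v1c2 (0.85) and Atp6v0e (0.71) the largest (adjusted p = 0.00442, 0.0482 and 0.00134).
Shares over all genes were 6.31% higher and 6.5% lower in KHR-N-/- against KR-N-/-. Under median scaling that comparison called 2 subunit genes higher and 0 lower. In KHR-N-/- against KHR, where 7.34% of all genes were called, only Tcirg1 passed (0.50, adjusted p = 0.042). It was lost without KHR-N+/- replicate 3, and 2 subunits were lower in addition once KHR replicate 5 was left out. Ctsl followed the mean of the pump genes over the arrays, with a correlation of 0.759 and of 0.707 within groups, and Ctsh had 0.680 and 0.276.

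Among 5 other measured cathepsins, 0 were called in KHR-N-/- against KHR. In KR-N-/- against KR-N+/- 2 were lower, Ctsa (-0.80, SE 0.13, adjusted p = 0.000898), the protective protein of the neuraminidase complex, and Ctsf (-0.38, adjusted p = 0.0288). Ctsa was also higher in KHR-N-/- than in KR-N-/- (0.44, adjusted p = 0.0313). Of 26 lysosomal hydrolases and activators, 4 were higher in KHR-N-/- than in KHR, led by the lipase Lipa (0.75, adjusted p = 0.00562), Lgmn (0.66, adjusted p = 0.00254), the legumain that processes cathepsin precursors, and Grn (0.44, adjusted p = 0.0209), the progranulin precursor. Of all genes, 4.57% were higher in that comparison. Without KHR replicate 5 the hydrolase count was 7 higher and 2 lower, and under median scaling 1 higher. In the KR comparison 4 hydrolases and activators were higher, Psap (0.64) and Pla2g15 (0.57) among them, and 2 lower, with Gm2a (-0.96) the largest (adjusted p = 0.0027, 0.031 and 0.0311). The KR comparison called 16.2% of all genes, with 6.63% lower. Lgmn was higher in KHR-N-/- than in KR-N-/- (0.56, adjusted p = 0.0114).
Lysosomal membrane proteins (16 genes) and genes of lysosomal sorting and transcription (7 genes) gave 0 calls in KHR-N-/- against KHR and in KR-N-/- against KR-N+/-, with medians between -0.10 and -0.04. The 1 call among them in KHR-N-/- against KR-N-/- was Sidt2 (-0.45, adjusted p = 0.0202). In KHR-N+/- against KHR, where 1.25% of all genes were called, 1 gene of these lysosomal and inhibitor lists passed, Cstdc4 (1.52, adjusted p = 0.0303). It was lost without KHR-N+/- replicate 3. Without KHR replicate 5 the stefins gave 2 calls and the hydrolases 1. Under median scaling, where 3 of 9732 genes were called in KR-N-/- against KR-N+/-, 0 genes of any list passed in that comparison.

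**Figure D4:**
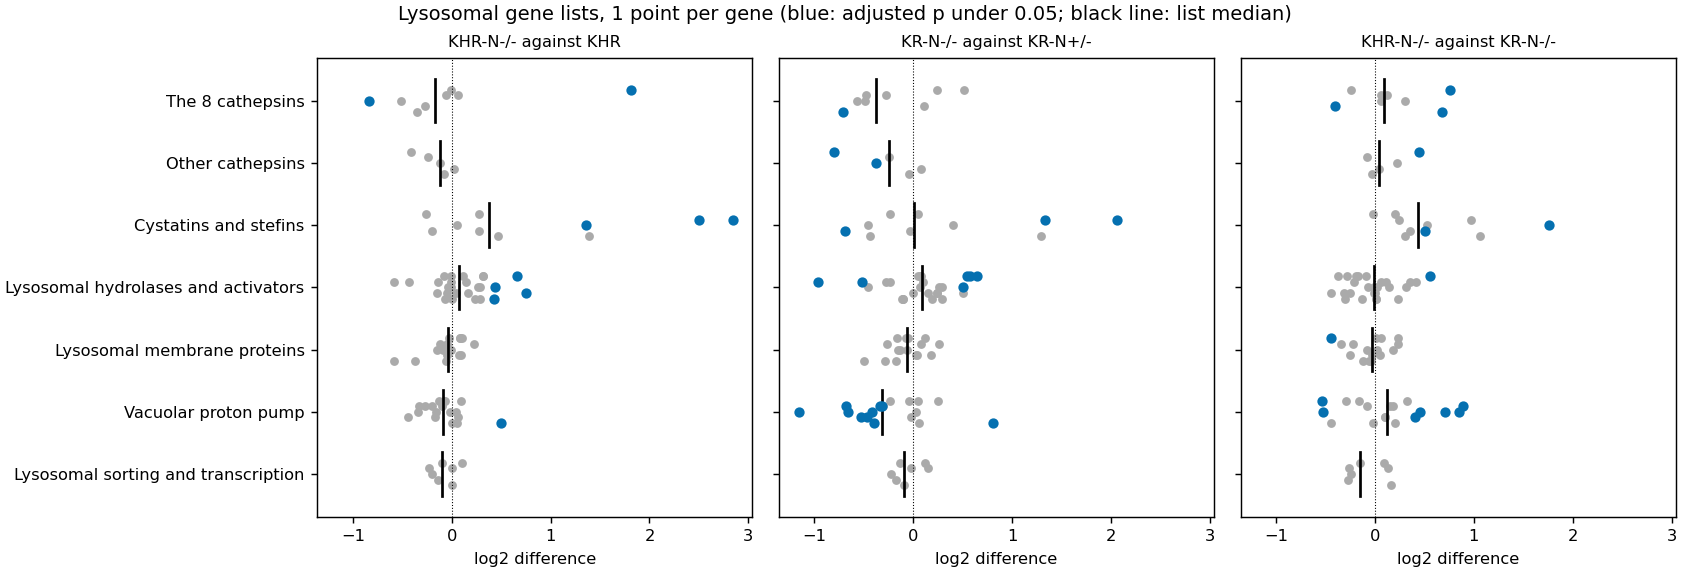
Log2 differences of the 8 cathepsins and of 6 lists of lysosomal and inhibitor genes in 3 comparisons, 1 point per measured gene. Blue marks an adjusted p under 0.05 and the black line the median of a list. In KR-N-/- against KR-N+/- the proton pump lies to the left (median -0.32), and Csta2 and Cstdc4 lie far to the right in KHR-N-/- against KHR (2.84 and 2.50).

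Antigen presentation genes, which mark cells that use cathepsin S, were lower for 2 of 8 in KHR-N-/- against KHR, Cd207 of Langerhans cells (-1.05, adjusted p = 0.046) and the invariant chain gene Cd74 (-0.73, adjusted p = 0.042). Of all genes, 2.76% were lower and 4.57% higher in that comparison. The list mean was 7.79 in KHR replicate 4, 6.21 to 6.62 in the other KHR tumours and 5.81 to 6.45 in KHR-N-/-. Itgax was detected on 0 of 23 arrays. Without KHR-N+/- replicate 3 the count was 1, without KHR replicate 5 it was 3, and under median scaling it was 0. Skeletal muscle markers also differed, with 11 of 15 higher in KHR-N-/- than in KHR and 10 of 15 lower in KHR-N+/- than in KR-N+/- (8 and 1 under median scaling). The second of these comparisons called 5.57% of all genes. Means of the muscle markers were 7.10 to 7.69 in KHR, 8.02 to 8.30 in KHR-N-/- and 8.43 to 9.14 in KR-N+/-, and their part in the cathepsin differences was not tested. Ctsk had a correlation of 0.313 with the muscle mean over the arrays and 0.199 within groups. T and NK cell markers gave 0 calls of 6 in both comparisons of complete Notch1 loss, with array means between 4.24 and 4.87. Endothelial markers were higher for 2 of 7 in KR-N-/- against KR-N+/-, Tek (0.82) and Cdh5 (0.46), for 3 without KHR replicate 5 and 1 without KHR-N+/- replicate 3, and for 0 of 7 in KHR-N-/- against KHR. In KR-N-/- against KR-N+/- 16.2% of all genes were called.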

How the data were processed

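RNA of 23 oral tumours was labelled with biotin and read on 1 array each, per the labels. The deposited scanner table holds a mean bead intensity per probe with bead counts, bead standard errors and a detection p-value, per the file headers, and its values show no background subtraction. A second deposited table holds the authors' processed intensity, with column medians of 4.44 to 4.55 and 26.6% of values below 0. How the authors made it is unknown here, so it was tried as an alternative setting alone. Per the submitters' processing notes, GenomeStudio and Partek were among the tools.

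Intensities were corrected with normexp (negative controls inferred from the detection p-values, offset 16), scaled by quantiles and log2-transformed with limma 3.58.1 in R 4.3.3. A probe was kept if its detection p-value fell under 0.05 on 4 or more arrays, and the brightest stood for each gene. The platform annotation gave 1 symbol for 23978 of 25697 probes, of which 23962 matched RefSeq by Entrez identifier. Cathepsin probes were read on 13 to 67 beads per array, with a median bead standard error of 2.3% to 4.2% of the intensity. A model of the 5 groups (18 residual degrees of freedom) was fitted with lmFit and eBayes and tested on simulated data. Slide positions and scan dates are not given in the sources used here, so a batch could not be tested directly. The mean number of beads per probe went with replicate number. It was 27 to 30.5 on the arrays of replicate 1 and 38 to 40.4 on those of replicates 4 and 5. Whether this reflects a batch was not tested. Correlations between arrays ran from 0.939 to 0.993.

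The 8 cathepsins and the gene lists were chosen with earlier results of these data known. Beside the cathepsins, the text names up to 3 genes per list and comparison with the largest difference among those that passed, the 3 genes most correlated with each cathepsin over the 23 arrays, Notch1, and, for marker lists, genes that were not detected. Exceptions, named after their values were seen, are Acp5, Oscar, Nfatc1, Mcpt4 and Tpsab1. The alternatives were background correction, scaling, offset, filters, the authors' values, mean of probes, fewer groups, variance model, array weights, replicate number, and arrays left out. List counts without single arrays or under median scaling were added after seeing the data.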

Additional observations from a re-analysis of the deposited data

Results flagged for a closer look

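Ctsc in KHR replicate 5 was 10.69, against 9.02 to 9.47 in the other 4 KHR tumours. Its gap to the next value is 0.732 of the range of the group, above the 95% critical value for 5 samples. It was the only one of 40 combinations of gene and group that stood out in this way, and chance gives about 1 in 20. The other Ctsc probes were also highest in this tumour, at 9.27 and 8.14.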

How the results depend on the processing

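Of 672 values of a member in a comparison and setting, over 12 alternatives, 621 kept their sign and their side of the threshold. With median scaling the number of cathepsins called was 1 for KHR-N-/- against KHR (2 as reported), 0 for KHR-N+/- against KHR (1), 0 for KR-N-/- against KR-N+/- (1), 4 for KHR-N+/- against KR-N+/- (0) and 1 for KHR-N-/- against KR-N-/- (3). Under it Ctsb reversed to 0.64 (adjusted p = 0.0443) in KHR-N+/- against KR-N+/- and to 0.24 in KHR-N-/- against KR-N-/-, where the medians of all genes were 0.65 and 0.39, and elsewhere between -0.18 and 0.29. With only the groups compared, the counts were 1, 0, 3 and 1 for KHR-N-/- against KHR, KHR-N+/- against KHR, KR-N-/- against KR-N+/- and KHR-N+/- against KR-N+/-. With array weights they were 3 for KHR-N-/- against KHR (2 as reported), 1 for KHR-N-/- against KHR-N+/- (0 as reported) and 1 for KHR-N+/- against KR-N+/-. Without KHR replicate 5 and KHR-N+/- replicate 3 they were 2 for KHR-N+/- against KHR and 2 for KR-N-/- against KR-N+/-. Leaving out single arrays gave 1 to 2 (2 without KHR replicate 5) in both of these, 0 to 1 in KHR-N+/- against KR-N+/- and 1 to 3 in KHR-N-/- against KR-N-/- (1 without KR-N-/- replicate 2 or 4). The cause of these changes was not tested. A different effect of both Notch1 alleles lost against 1 lost in the 2 tumour types was called for 0 members in all settings.

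The labels do not say that replicate numbers pair the tumours. After group means were removed, 43 same-numbered pairs from different groups had correlations of -0.328 to 0.476 (median 0.053, 16 above 0.1). The 168 other pairs between groups had -0.543 to 0.571 (median -0.0104, 28 above 0.1). Of the 23 arrays, 9 were closest to an array of their own number. Whether same-numbered tumours share a batch was not tested. A replicate block called 1 member in KHR-N+/- against KR-N+/- (Ctsk, 0.75, adjusted p = 0.0368) and changed no other member's call. It called 2 genes in all for the difference in Notch1 effect between the tumour types.

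Over all genes the number called moved by more than 1.5 times from 714 to 164 (median scaling), 385 (only these groups), 2230 (weights) and 1254 (both tumours left out) in KHR-N-/- against KHR. It moved from 122 to 28, 0, 891 and 70 (no filter) in KHR-N+/- against KHR, from 10 to 0 (median scaling, no filter or only these groups), 4 (no background correction), 6 (mean of probes), 17 (trend), 265 (weights) and 81 (both tumours left out) in KHR-N-/- against KHR-N+/-, and from 1581 to 3 (median scaling) in KR-N-/- against KR-N+/-. In KHR-N+/- against KR-N+/- 542 became 4550 (4534 higher, median scaling) or 1080 (weights), and in KHR-N-/- against KR-N-/- 1247 became 286 (283 higher), 2102 or 2265. Under median scaling 148 of the 164 and 26 of the 28 were higher, against 445 of 714 and 80 of 122, and in the last 2 comparisons 311 of 542 and 614 of 1247 were higher as reported. Leaving out single arrays gave 461 to 1331, 41 to 254, 0 to 46, 897 to 1988, 307 to 870 and 686 to 1687 genes in the 6 comparisons, in this order. The number of arrays, and for Ctss and Ctsl a signal near background, limit what can be detected.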
